A study of Oryctolagus cuniculus with 4 samples.

Results

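A window of chromosome 16 of the rabbit, at positions 68559446 to 68612080 of the OryCun2.0 assembly, held 3 of the 29587 genes listed by Ensembl release 98. All 3 lie on the plus strand, and they were taken as every listed gene that starts and ends inside the window. The window was chosen by the measured values themselves: edgeR calls of the PRP contrast picked it out, as a run of neighbouring genes that were higher in cells cultured with platelet-rich plasma (PRP). The difference between cultures with and without PRP is therefore a description of these genes and no test of them.

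The RNA came from tendon stem/progenitor cells of New Zealand White rabbits. Such cells are the dividing cells of tendon, from which new tendon cells form. They were grown in medium that held 10% (v/v) PRP, a plasma fraction enriched in platelets and in the growth factors that these carry, or in medium without PRP (noPRP), with 2 libraries in each group. The labels name no other treatment, culture time, sex or age. Nor is it stated if the replicates were separate rabbits or cultures, so the spread between them, on which p-values rest, may be technical. The libraries held 20100175 to 24064713 counted reads. As these were bulk cultures, fewer cells that make a transcript and less of it in each cell cannot be told apart. The files carry identifiers without gene names, so the cell type could not be checked against its markers.

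The middle gene, ENSOCUG00000026988, spans positions 68595451 to 68601787 and has 10 exons of 25 to 656 bases that sum to 1667 bases. It is called the abundant gene here. The upstream neighbour lies at positions 68559446 to 68569514, with 11 separate exon blocks and 1395 exon bases. The downstream neighbour lies at positions 68604324 to 68612080, with 11 exon blocks and 2550 exon bases. The upstream neighbour ends 25.9 kb before the abundant gene, and the downstream neighbour begins 2.5 kb after it. No member overlapped another listed gene (0 genes for each), so no exon position was shared between listed genes. Whether reads were lost because they align to several places was not tested.

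Genes that lie side by side and point the same way are often relatives that arose by duplication, or genes that share control elements, and may also be unrelated. The first 4 exon blocks had the same lengths in the upstream neighbour and the abundant gene (25, 30, 202 and 57 bases). Block 7 had 124 bases in both, and the other blocks of this pair differed in length. The downstream neighbour began with blocks of 1049, 135, 168 and 89 bases. No sequences were compared, so kinship was not tested. CHI3L1 was considered as the name of the abundant gene. It encodes a secreted glycoprotein of the chitinase family that binds chitin without cutting it and is made by cartilage cells, macrophages and inflamed connective tissue. In the RefSeq gene table of another rabbit assembly, mOryCun1.1, the nearest protein-coding genes of CHI3L1 are CHIT1, which encodes an active chitinase of macrophages, and MYBPH, which encodes a myosin-binding protein of muscle. That table matched 0 of the identifiers, and a place in the order of genes is not a match. Whether the abundant gene is CHI3L1 was therefore not determined, and no symbol is used for any of the 3 genes.

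The abundant gene was already well expressed without PRP and was among the highest of all genes with it. It had 14782 and 9174 counts in noPRP replicates 1 and 2, and 515091 and 277113 counts in PRP replicates 1 and 2. Both PRP libraries lay far above both noPRP libraries, and within each group replicate 1 was the higher. As a share of all counted reads this was 0.0735% (95% Wilson interval 0.0724 to 0.0747) and 0.0438% (0.0429 to 0.0447) without PRP. With PRP it was 2.14% (2.135 to 2.146) and 1.16% (1.159 to 1.167). These intervals, like all those given here, cover counting error only. The share of the transcript pool thus differed between replicates by more than counting error in each group.

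Levels were also expressed as CPM (counts per 1000000), scaled with TMM factors, which align libraries on the bulk of their genes. On this scale the abundant gene was at 673 and 404 CPM in the noPRP libraries and at 21425 and 13819 CPM in the PRP libraries. Its place among all listed genes by CPM moved from 193rd and 325th in the noPRP libraries to the 3rd and the 5th in the PRP libraries. Per kilobase of exon (RPKM), which allows genes to be compared, its level was 323 ± 114 without PRP and 10571 ± 3226 with PRP (SD, n = 2 each). The lower PRP library was 20.5 times the higher noPRP library, whereas replicates differed by 1.67 times without PRP and by 1.55 times with it.

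The 2 neighbours showed the same direction at a far lower level, and without PRP no read was counted on either. On the upstream neighbour, PRP replicates 1 and 2 had 61 and 46 counts, and each noPRP library had 0. On the downstream neighbour, they had 28 and 78 counts, and the noPRP libraries again had 0. Reads were thus counted on each in both PRP libraries and in neither noPRP library. It was not tested if these counts include reads from transcripts of the abundant gene, which lies between them on the same strand. A count of 0 allows up to 3 counts, a level of 0.137 CPM in noPRP replicate 1 and 0.132 CPM in noPRP replicate 2, so silence means a level below these limits.

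**Figure D1:**
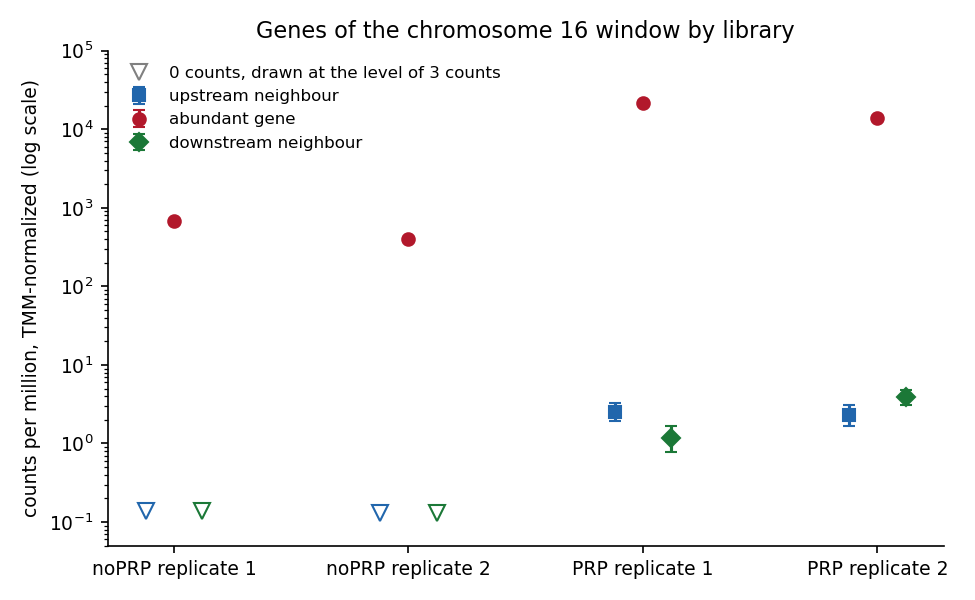
Level of each gene of the window in each library, in TMM-normalized CPM on a log axis, with exact 95% Poisson intervals of the counts as bars (hidden by the symbol where narrow). Open triangles stand for 0 counts and are drawn at the level of 3 counts. The abundant gene has counts in all 4 libraries, at 404 to 21425 CPM. The neighbours have counts only in the PRP libraries, at 1.16 to 3.89 CPM.

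With PRP, the replicates agreed closely for the upstream neighbour and not for the downstream one. The upstream neighbour was at 2.54 CPM (exact 95% Poisson interval 1.94 to 3.26) and 2.29 CPM (1.68 to 3.06), so its PRP libraries did not differ beyond counting error. The downstream neighbour was at 1.16 CPM (0.774 to 1.68) and 3.89 CPM (3.07 to 4.85), intervals that do not overlap. The replicate that was higher also differed between genes. PRP replicate 1 exceeded PRP replicate 2 by 0.63 on the log2 scale for the abundant gene and by 0.15 for the upstream neighbour, while the log2 difference was −1.74 for the downstream neighbour.

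Per length, the order of levels with PRP was the abundant gene, the upstream neighbour and the downstream neighbour in both libraries. The upstream neighbour was at 1.73 ± 0.12 RPKM and the downstream neighbour at 0.991 ± 0.756 RPKM (SD, n = 2 each), so these 2 did not differ beyond the spread of the replicates. In PRP replicate 2 they were nearly level, with a ratio of 1.08, against 3.98 in PRP replicate 1. The abundant gene was 7066 and 5041 times the upstream neighbour in PRP replicates 1 and 2, and 28140 and 5435 times the downstream neighbour. Of the counts of the window, 99.98% and 99.96% fell on the abundant gene in these libraries.

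For each neighbour taken alone, the contrast between a gene with a baseline and a silent neighbour lay near the limit of this depth. From counts summed over the libraries of a group, the abundant gene was 33.5 times higher with PRP. With 3 counts set for the noPRP group as a whole, the upstream neighbour was at least 36.2-fold higher and the downstream neighbour at least 35.8-fold higher, bounds that are close to the fold of the abundant gene. With 3 counts set for each noPRP library, the bounds were at least 18.1-fold and at least 17.9-fold, below that fold. Had the neighbours kept their PRP ratio to the abundant gene without PRP, 3.24 counts on the upstream and 3.21 on the downstream neighbour would have been expected over both noPRP libraries. For each neighbour these lie near the limit that an observed 0 allows, above 3 counts and below 3.69, the upper end of the exact two-sided 95% Poisson interval of 0. For the 2 neighbours together, 6.44 counts would have been expected with the ratio of both PRP libraries, above both limits, and 0 were counted. The expectation for the upstream neighbour was 2.84 with the ratio of PRP replicate 1 and 3.98 with that of PRP replicate 2, and for the downstream neighbour it was 1.30 and 6.74. For both neighbours the choice of PRP library therefore decides on which side of 3 counts the expectation falls. Both limits cover counting error only, and replicates differed by more than that for the downstream neighbour, at 28 and 78 counts in PRP replicates 1 and 2. The limits are therefore too narrow for the spread between libraries. The 0 counts were also part of what chose the window, so these values carry no test, for each neighbour or for both together.

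Across all genes, 0 counts in both noPRP libraries with at least 10 in both PRP libraries was seen for 34 of the 29587 listed genes (0.115%), and both neighbours are among them. All 3 genes of the window passed the low-count filter and were called higher with PRP by edgeR's quasi-likelihood test (Benjamini-Hochberg adjusted p under 0.05), as were 0.535% of the 12707 tested genes, while 0.323% were called lower. The neighbours passed that filter only through the PRP libraries, and these calls chose the window, so nothing is read from this count. The fitted log2 fold change of the abundant gene was 5.03, and it lay between 4.66 (without PRP replicate 1) and 5.46 (without noPRP replicate 1) when any 1 library was left out. The calls of all 3 genes were lost with upper-quartile normalization and without noPRP replicate 2, and that of the downstream neighbour was lost without PRP replicate 2. The bound of the downstream neighbour was at least 17.9-fold without PRP replicate 2 and at least 57.5-fold without PRP replicate 1.

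**Figure D2:**
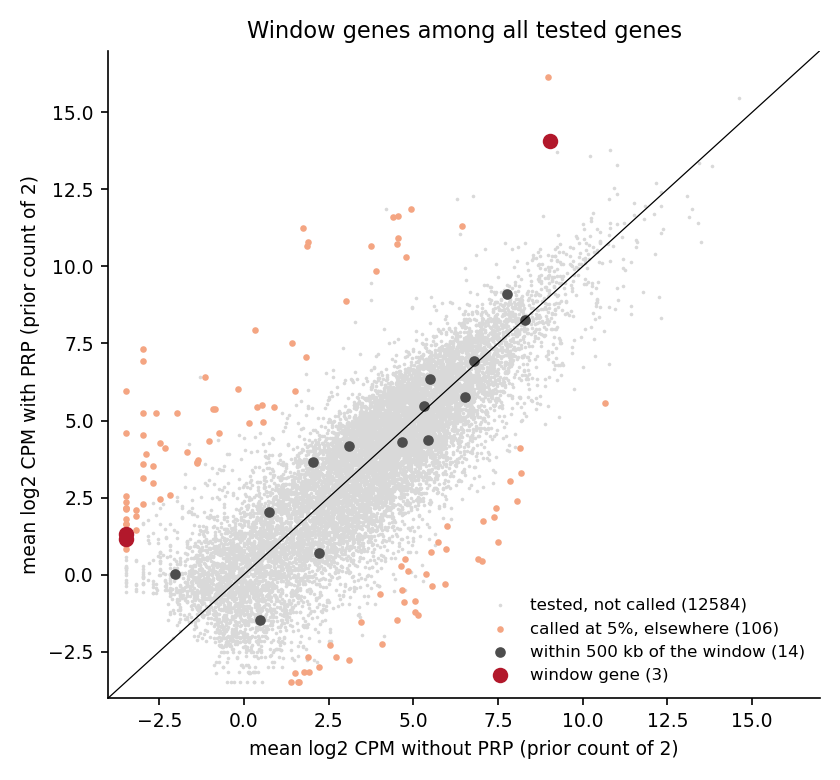
Mean log2 CPM (prior count of 2) of each of the 12707 tested genes without PRP on the horizontal axis and with PRP on the vertical axis; the line marks equal levels. Of the 3 window genes in red, the abundant gene lies at the upper edge, and the 2 neighbours lie at the left edge, where genes with 0 counts without PRP fall. The 14 tested genes within 500 kb, in dark grey, lie in the main cloud.

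The replicates of the abundant gene lay closer together than those of most genes of fair abundance. Its log2 difference between replicates was 0.74 in noPRP and 0.63 in PRP. Among the 4354 tested genes with an average log2 CPM of at least 5, the median absolute difference was 0.99 in noPRP and 0.82 in PRP. A smaller difference than that of the abundant gene was found for 37.4% of them in noPRP and for 38.2% in PRP. The calls that chose the window depend on the spread between replicates, so this closeness is a description and no independent result.

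The nearest listed gene on each side of the window was silent or nearly so. The nearest listed gene upstream lies 14.2 kb away on the minus strand, at positions 68544184 to 68545284, and had 0 counts in all 4 libraries. The nearest downstream lies 0.5 kb away, also on the minus strand, at positions 68612590 to 68640712. It had 2 counts in each PRP library and 0 in each noPRP library, too few to be tested.

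Within 500 kb on either side of the window, 27 genes are listed, 11 upstream and 16 downstream. Of these, 14 were tested, and 0 passed an adjusted p under 0.05 in edgeR (lowest adjusted p = 0.336), with 1 at an unadjusted p under 0.05 where 13.3% of all tested genes were. DESeq2 also called 0 of them. The window was drawn as a run of rising genes with gaps of at most 500 kb. A gene called higher in this range would have been joined to it. The absence of rising edgeR calls here was therefore set by the choice and is no result. Another 8 flank genes had 0 counts in all 4 libraries (32.6% of all listed genes did), and 5 had a few counts and were not tested.

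Fold changes of the tested flank genes lay on both sides of 0. Their log2 fold changes ran from −2.50 to 2.28, with 8 positive and 6 negative and a median of 0.17, against medians of 0.04 over all tested genes and −0.46 over the 340 tested genes of chromosome 16. The PRP libraries both lay above the noPRP libraries for 4 of the 14 (28.6%, against 23.8% of all tested genes) and both below for 2 (14.3%, against 23.1%). Replicates differed as well: 10 of the 14 were higher in noPRP replicate 1 than in noPRP replicate 2. The median log2 difference was 0.94, where the median over all tested genes was −0.05. The offset was smaller between the PRP replicates, where 9 of the 14 were higher in replicate 1. There the median log2 difference was 0.31, against 0.04 over all tested genes. The abundant gene, at 0.74, differed between the noPRP replicates in the same direction as most of these genes. Whether a regional difference between libraries enters the values of the window was not tested.

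The most abundant flank gene, on the minus strand at positions 68343577 to 68543160, was at 210 and 123 RPKM without PRP and at 424 and 391 RPKM with PRP. Its groups did not overlap, and its log2 fold change of 1.29 did not pass the test (edgeR adjusted p = 0.491). The abundant gene of the window was 1.93 and 1.96 times this gene per length in the noPRP libraries and 30.3 and 21.2 times in the PRP libraries. Without PRP, then, the gene of the window already had a higher level per length than each gene within 500 kb.

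The next 4 flank genes by abundance did not pass the test. The gene at positions 68822092 to 68877646 had a log2 fold change of 0.01 (edgeR adjusted p = 0.994), with 8538 and 5816 counts without PRP and 10253 and 4505 with it. The gene at positions 68812836 to 68817970 had a log2 fold change of −0.01 (edgeR adjusted p = 0.998), from 4079 and 1490 counts without PRP and 2394 and 3022 with it. For both, the groups overlapped. The log2 fold change was −0.39 for the gene at 68058198 to 68094446 (edgeR adjusted p = 0.84) and 0.88 for the gene at 68737042 to 68757381 (edgeR adjusted p = 0.612), again with overlapping groups.

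The nearest tested gene upstream is the most abundant flank gene, whose span ends 16.3 kb from the window. Inside that span lies a gene on the plus strand, at positions 68522948 to 68538325 and 21.1 kb from the window. It had 54 and 15 counts without PRP and 7 and 5 with it, a log2 fold change of −2.50 (edgeR adjusted p = 0.336). The nearest tested gene downstream, 15.6 kb away, is on the minus strand at positions 68627715 to 68721501 and had 1 and 8 counts without PRP and 32 and 13 with it, a log2 fold change of 2.28 (edgeR adjusted p = 0.42). The nearest tested genes on both sides thus had positive fold changes, and neither passed the test.

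**Figure D3:**
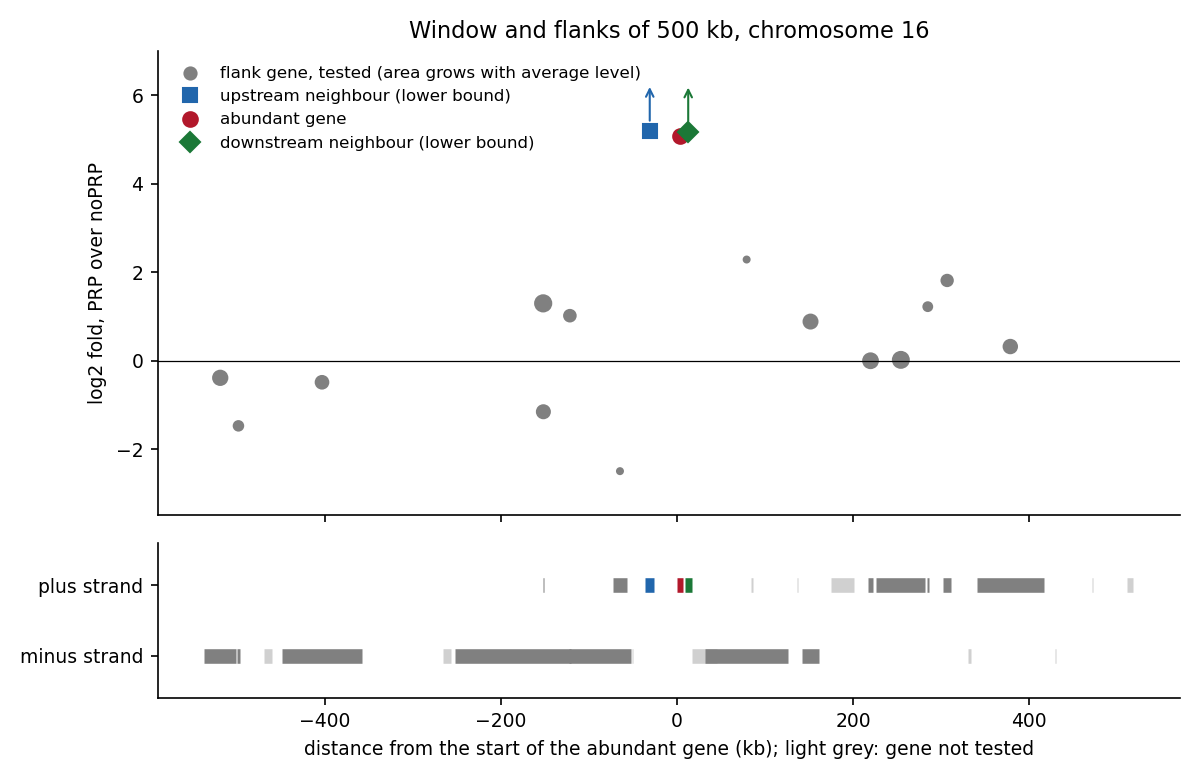
Upper panel: log2 fold of PRP over noPRP for the window genes (from summed counts; arrows mark lower bounds) and the 14 tested flank genes (fitted values), by distance in kb from the start of the abundant gene. Lower panel: spans of all listed genes by strand. The window genes stand above 5, and the flank genes lie between −2.50 and 2.28.

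One further gene with 0 counts in both noPRP libraries and reads in both PRP libraries lay in the flanks, besides the gene next to the downstream border. It is on the minus strand at positions 68330004 to 68339114, with 3 and 4 counts with PRP. Such a pattern of at least 1 count in each PRP library was seen for 1.67% of all listed genes, and the opposite pattern for 0.811%; 0 of the 27 flank genes had the opposite pattern. At 2 to 4 counts a library, these genes lie near the limit that a count of 0 allows.

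When the flank was widened to 1000 kb, 1 gene was called, also higher with PRP. It lies on the minus strand at positions 69600708 to 69603685, 988.6 kb from the window, with 8 exon blocks. Its counts were 6 and 2 without PRP and 850 and 821 with PRP, a log2 fold change of 7.68 (edgeR adjusted p = 0.0112). On chromosome 16 as a whole, 7 of 340 tested genes were called higher with PRP (2.06%) and 0 lower. Over all tested genes the shares were 0.535% and 0.323%. Of the 7, 3 are the genes of the window, which were chosen by such calls, so no rise of the chromosome is read from this count. The median log2 fold change of its tested genes was −0.46.

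Among genes of fair abundance, those whose levels followed the abundant gene most closely over the 4 libraries were found on other sequences. Likeness was the Euclidean distance between the 4 log2 CPM values of a gene, centred on their mean, and those of the abundant gene, over 4353 genes with an average log2 CPM of at least 5. Both neighbours in the window, at no more than 3.89 CPM in any library, lay below that level and could not be found. The median distance over these genes was 5.03, and the 5 nearest lay at 0.82 to 1.24. With 4 libraries that fall into 2 groups, such a ranking mainly finds genes with a like fold between the groups, and it carries no test.

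The nearest was a gene of 10 exon blocks on the unplaced sequence GL018988, at positions 521 to 11166. It was at 3.14 and 3.92 CPM without PRP and at 141 and 124 CPM with PRP. The second, on GL018806 at positions 727614 to 730825, was at 119 and 64.2 CPM without PRP and at 2107 and 3133 CPM with it. The third, on GL018739 at positions 1901647 to 1931846, went from 4.37 and 1.76 CPM to 60.4 and 64.4 CPM. All 5 were less abundant with PRP than the gene of the window. In edgeR 3 of the 5 were called, where 0.535% of all tested genes were called higher. The 5 were picked for a like fold, so nothing is read from this count. The remaining 2 lie on chromosome 4 at positions 9806573 to 9821092 and on chromosome 13 at positions 40811466 to 40820491, with log2 fold changes of 4.44 and 3.94.

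**Figure D4:**
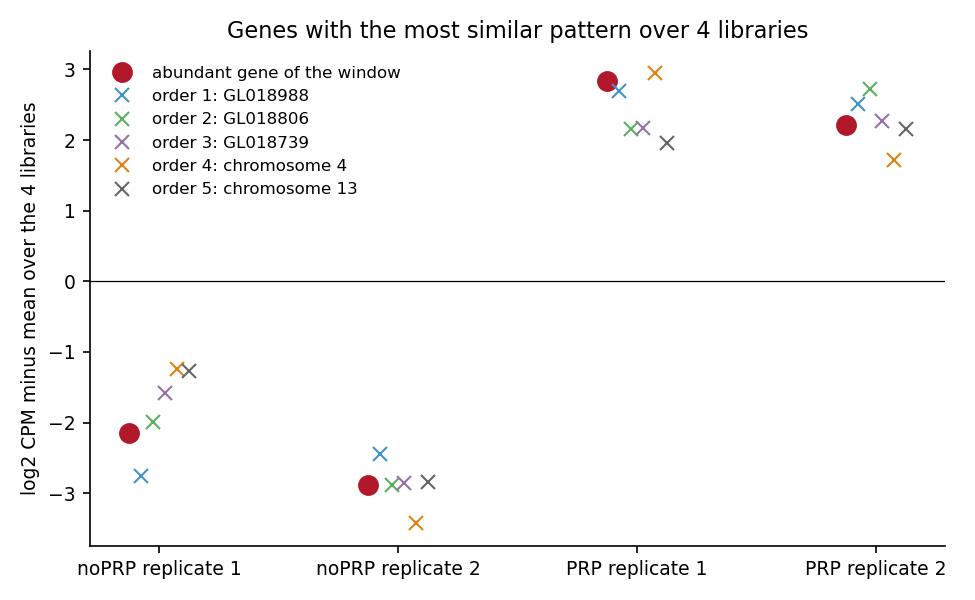
Centred log2 CPM (each gene's value minus its mean over the 4 libraries) of the abundant gene and of the 5 genes at the smallest distance from it, by library. The abundant gene stands at −2.15 and −2.89 in the noPRP libraries and at 2.84 and 2.21 in the PRP libraries; the replicate that is higher differs among the 5 genes.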

How the data were processed

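The authors deposited raw counts of reads for each gene, with a table for every library. STAR 2.7.2a, featureCounts 1.6.5 and the OryCun2.0 assembly are named in the submitters' processing notes. Per the file headers, featureCounts took exons grouped by gene identifier in Ensembl release 98 and ran without options for strand, pairing, repeated alignments or overlaps, so values of gene families are uncertain. Genes were filtered with edgeR's filterByExpr, which left 12707 genes with 99.92% to 99.94% of each library's counts. They were scaled by TMM (factors 0.842 to 1.09) and tested with edgeR 4.0.16 (glmQLFit, glmQLFTest) in R 4.3.3, with group as the only term and Benjamini-Hochberg adjustment over all tested genes. With 2 libraries a group, the smallest two-sided p of an exact permutation test is 0.333. RPKM is TMM-scaled CPM per kilobase of listed exon length. Folds against a group at 0 use a floor of 3 counts over that group. The fit was also run on simulated data with 200 changed genes and a common spread for all genes. That run checked the recovered fold and does not show how often calls are false at the spread of these data. Alternatives were DESeq2 1.42.0, other scalings, filters, flanks and floors, a replicate block, and each library left out. The window and all lists were chosen with earlier results of these data known. Every gene of the window is described; of the flanks, the 5 most abundant genes, the nearest tested one on each side and every called one are named, and the genes of like pattern are the 5 nearest. The plus-strand gene inside the span of the nearest upstream one, the genes at the window's borders, those with reads only with PRP and the gene found with the wider flank were chosen after their values were seen. Lists of named pathway and cell type genes gave no result, since 0 identifiers were paired with symbols. Libraries of a group differed far beyond sampling noise (a chi-square of 506 per degree of freedom in noPRP, and of 397 in PRP).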

Additional observations from a re-analysis of the deposited data

How the results depend on the processing

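The log2 fold change of the abundant gene stayed within 0.69 of 5.03 under each alternative run; 0.69 is the root of the summed squares of the replicate SDs of both groups. The bound of the upstream neighbour, 5.18 on the log2 scale, was 4.18 with a floor of 3 counts in each library (4.16 for the downstream neighbour), and 4.14 to 5.29 with a library left out. Leaving out a noPRP library keeps the floor of 3 counts and sets it against the depth of 1 noPRP library. For the downstream neighbour the bound was 5.16, and 4.13 to 5.84 with a library left out. The log2 difference between the PRP replicates of the upstream neighbour, 0.15, was 0.39 with total counts in place of TMM. Called genes numbered 109 over all genes (62.4% higher), 728 with DESeq2 (42.0%), 60 after upper-quartile scaling (76.7%), 565 with no filter (40.7%) and 114 to 571 with a library left out, the highest without noPRP replicate 1; the cause was not tested. Replicate numbers are not said to pair libraries, and same-numbered libraries deviated with a correlation of −0.63 across genes. With the replicate number as a block, 57 genes were called and 2 of the 3 window genes, the abundant gene not among them. A crossed pairing, chosen after seeing the data, gave 3588 calls, 2 of them within 500 kb. Calls within 500 kb numbered 0 with the other scalings, filters and tools, with the block, with each library left out and with a flank of 250 kb, and 1 with a flank of 1000 kb. The neighbours' counts limit what can be said of their level without PRP.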
